A study of Mus musculus with 19 samples.

Results

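The genes described here encode the subunits of Polycomb repressive complexes 1 and 2, taken as a list of 30 mouse genes and followed in cultured Melan-a cells and in tumours grown from them. The list was applied by gene symbol. It holds 11 PRC2 genes, 2 genes of the catalytic core shared by all PRC1 forms, 9 genes of canonical PRC1 and 8 of variant PRC1. Of the 30, 29 were among the 13202 genes of the bulk RNA-seq table, and all 29 passed the filter on low values that left 10803 genes for testing. Phf19 was the gene outside the bulk table. All 30 genes were listed in each of the 4 single-cell matrices.

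PRC2 adds methyl groups to lysine 27 of histone H3 through EZH1 or EZH2, which are active only together with EED and SUZ12. PRC1 places ubiquitin on lysine 119 of histone H2A through the RING1 or RNF2 ligases. Canonical PRC1 is brought to methylated H3 by CBX proteins and compacts chromatin through PHC proteins, whereas variant PRC1 carries RYBP or YAF2, is assembled around other PCGF proteins and does most of the H2A ubiquitination. BAP1 is the catalytic subunit of the Polycomb repressive deubiquitinase, PR-DUB, which removes that ubiquitin. Loss of BAP1 is known from uveal melanoma and other tumours, so the level of the enzymes on either side of the same mark is of interest in a BAP1 knockout.

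The bulk libraries came from 4 BAP1 knockout clones made with CRISPR in Melan-a, an immortalised line of mouse melanocytes, with 2 cultures each, and from wild-type (WT) Melan-a cells, also with 2 cultures. No drug was given to any of them. Each knockout line is a single clone and the only WT cells are 1 line, so a difference between a clone and WT holds both the effect of the knockout and whatever set that clone apart. The single-cell matrices came from syngeneic mouse tumours of injected Melan-a cells, with 1 tumour per genotype and site: KO skin, KO ocular, WT skin and WT ocular. Which clone gave the knockout tumours is, in the sources used here, not given.

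The targeted gene was checked first. Bap1 (chromosome 14, 31251352 to 31259930 in GRCm38.p6, as for all positions here) had 753.2 and 655.4 normalised reads for KO clone 1, 1067 and 1124 for clone 2, 1193 and 1098 for clone 3, and 491.1 and 359.4 for clone 4, against 4450 and 4392 in the WT cultures. All 8 knockout cultures lay below both WT cultures. On the log2-like scale Bap1 fell by 2.38, 1.85, 1.79 and 2.94 in clones 1 to 4 (adjusted p = 5.98e-06, 6.69e-06, 5.39e-06 and 2.07e-07). Melanocytic markers were abundant in every culture: 14 of 15 were in the table and summed to 1864000 to 2502000 normalised reads in the knockout cultures and to 2322000 to 2364000 in the WT cultures. Of 10 macrophage markers 5 were in the table, summing to 1478 to 7995 in the knockout cultures and 4402 to 4494 in WT, of 8 fibroblast markers 2 were, summing to 1835 to 4002 in the knockout cultures and 3048 to 3080 in WT, and of 10 T and NK cell markers 0 were. Depth was 30770592 to 46837289 reads per library. The 2 WT cultures resembled each other more than the cultures of any clone did, with a median chi-square per gene of 0.98 for WT against 2.65 to 11.7 for the clones, and the fit pools 1 estimate of spread over the 5 lines.

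The variant PRC1 genes Pcgf3, Pcgf6 and L3mbtl2 had the largest differences from WT, and their upstream sequences are shown for that reason. They are the 250 bases before the RefSeq start in GRCm38.p6, less any base that lies inside the annotated gene, and the capitals mark each CpG. Pcgf3 lies on the plus strand at chr5:108461009-108461258, Pcgf6 on the minus strand at chr19:47050940-47051156 and L3mbtl2 on the plus strand at chr15:81663639-81663888.
Pcgf3: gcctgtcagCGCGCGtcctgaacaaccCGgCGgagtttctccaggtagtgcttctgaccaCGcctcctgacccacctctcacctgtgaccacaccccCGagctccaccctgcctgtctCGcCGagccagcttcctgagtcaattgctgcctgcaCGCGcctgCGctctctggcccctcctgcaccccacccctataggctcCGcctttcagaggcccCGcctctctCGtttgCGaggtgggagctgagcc
Pcgf6: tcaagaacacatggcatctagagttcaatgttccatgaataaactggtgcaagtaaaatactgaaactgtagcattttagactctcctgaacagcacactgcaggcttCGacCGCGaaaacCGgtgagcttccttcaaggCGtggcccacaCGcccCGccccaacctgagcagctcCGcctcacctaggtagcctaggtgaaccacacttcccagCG
L3mbtl2: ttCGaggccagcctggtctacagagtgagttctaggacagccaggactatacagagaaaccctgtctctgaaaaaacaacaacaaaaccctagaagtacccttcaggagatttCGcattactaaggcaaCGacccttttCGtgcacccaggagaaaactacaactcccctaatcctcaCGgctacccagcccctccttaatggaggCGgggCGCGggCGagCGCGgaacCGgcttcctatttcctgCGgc
These stretches hold 16, 9 and 13 CpG in 250, 217 and 250 bases. Windows of this kind, with all 250 bases, were found for 26 of the 30 genes, and their 37 windows had a median GC content of 66%, against 52.4% over all 32851 windows of the genome. Their median CpG count was 21 (range 1 to 38), against 6 over all windows. A set of 4 short motifs was searched on both strands, none of which contains another. A member was counted if any of its windows matched, while the share over all windows is by single window. These units are unlike, so no enrichment is read from them. CACGTG, the E-box core, stood in windows of 7 members (Rbbp4, Bmi1, Pcgf2, Cbx6, Cbx8, Phc2 and Phc3) and in 6.02% of all windows. TTCCCGC, the core of E2F sites, stood in 3 members (Suz12, Phf19 and Pcgf5) and in 3.82% of all windows. CCAAT was found in 12 members and in 33.8% of all windows, and the palindromic NRF1 motif in 1 member, Phc3, and in 0.782% of all windows. None of the 4 motifs was in the windows of Pcgf3, Pcgf6 or L3mbtl2.

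The Polycomb genes shifted clone by clone and not as a block. At an adjusted p under 0.05, none of the 29 members was called in clone 1. In clone 2, 4 members rose and 0 fell, in clone 3, 8 rose and 3 fell, and in clone 4, 11 rose and 3 fell. These are 0.00%, 13.8%, 37.9% and 48.3% of the members, against 3.50%, 26.1%, 39.8% and 36.5% of all genes tested in the same clones. Over all genes 1.15% rose and 2.35% fell in clone 1, 12% (1300 genes) rose and 14.1% fell in clone 2, 19.9% rose and 20% (2158 genes) fell in clone 3, and 19.3% rose and 17.2% fell in clone 4. The members' share was therefore under that of all genes in clones 1 and 2, near it in clone 3 and above it in clone 4. The median difference of the members was 0.04, 0.04, 0.10 and 0.18 in clones 1 to 4, beside -0.02, 0.03, 0.01 and 0.04 for all genes. Altogether 16 members were called in at least 1 clone (57.3% of all genes were) and 13 in none, and 0 members were called in opposite directions in different clones (1.83% of all genes were). In bulk RNA a smaller number of expressing cells and less RNA per cell cannot be told apart.

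**Figure D1:**
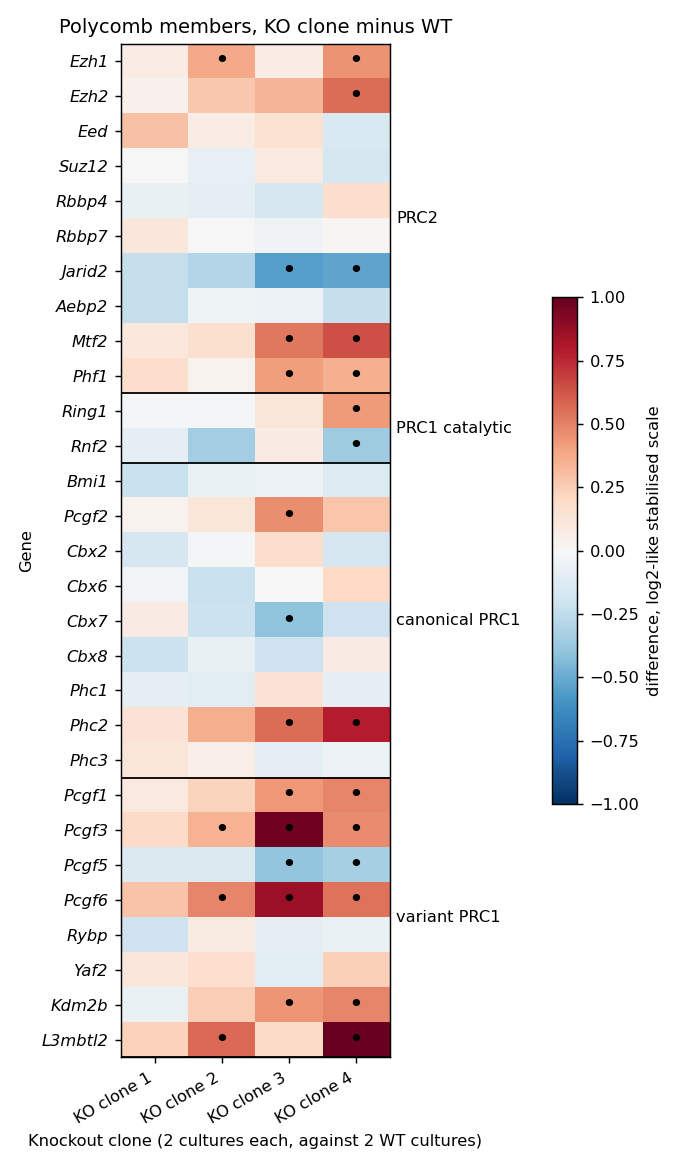
Difference of each of the 29 members from WT (colour, log2-like stabilised scale, limited to -1 to 1) in KO clones 1 to 4 (columns, 2 cultures each), grouped by complex. Dots mark an adjusted p under 0.05; clone 1 has 0 dots and clone 4 has 14, and the variant PRC1 block at the bottom holds 14 of the 29 dots.

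In PRC2 the enzyme genes Ezh1 and Ezh2 rose in 1 or 2 clones, and the core genes Eed and Suz12 were called in none. Of 10 tested PRC2 genes, 0 rose in clone 1, 1 in clone 2, 2 in clone 3 and 4 in clone 4, while 1 fell in clone 3 and 1 in clone 4. Their medians were 0.06, 0.02, 0.09 and 0.10. The share of these 10 genes called was under that of all genes tested in clones 1 to 3 (3.50%, 26.1% and 39.8%). In clone 4 it was above that of all genes (36.5%). Ezh2 (chromosome 6, 47530274 to 47595270), the main H3K27 methyltransferase of dividing cells, had 569.9 and 780.5 normalised reads for clone 1, 778.2 and 844.8 for clone 2, 836.5 and 891.0 for clone 3, and 968.4 and 1100 for clone 4, against 655.6 and 633.8 in WT. The cultures of clones 2, 3 and 4 all lay above WT, and clone 1 straddled it. Ezh2 rose in clone 4, by 0.56 (SE 0.13, adjusted p = 0.00691). That call was lost without WT replicate 2, where the difference was 0.54. The differences in clones 1, 2 and 3 were 0.04, 0.27 and 0.34 and missed the threshold, clone 3 with an adjusted p of 0.0547. Transcripts of S phase and of G2 and M phase, with which Ezh2 is known to rise in dividing cells, also differed: 8, 8 and 9 of 22 tested S phase genes rose in clones 2, 3 and 4, and 18 of 19 G2 and M phase genes rose in clone 2, 1 rose in clone 4 and 2 fell in clone 3. The medians were 0.16, 0.43, 0.06 and 0.45 for S phase and 0.27, 0.75, -0.22 and 0.07 for G2 and M phase. In clones 1 to 4, 0.00%, 36.4%, 36.4% and 40.9% of the S phase genes were called. For G2 and M phase genes the shares were 0.00%, 94.7%, 10.5% and 5.26%. Over all genes tested they were 3.50%, 26.1%, 39.8% and 36.5%. In clones 3 and 4 the S phase share was thus near that of all genes, and the G2 and M phase share under it. The part of S, G2 and M phase transcripts in the level of Ezh2 was not tested.

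Ezh1 (chromosome 11, 101191115 to 101226463), the second methyltransferase and the one known to persist in resting cells, had 1372 and 1338 normalised reads for clone 1, 1753 and 1695 for clone 2, 1386 and 1330 for clone 3, and 1814 and 1809 for clone 4, against 1297 and 1266 in WT. It rose in clones 2 and 4, by 0.38 and 0.45 (adjusted p = 0.0114 and 0.00355), and its differences in clones 1 and 3 were both 0.07. Both Ezh1 calls were lost without WT replicate 2, at differences of 0.37 in clone 2 and 0.43 in clone 4. The clone 2 call was also lost without WT replicate 1, at 0.40. The clones thus fell into a higher and a lower pair, and the F test among the 4 clones gave an adjusted p of 0.0102 for Ezh1. Eed (chromosome 7, 89954654 to 89980976), the subunit that reads methylated H3 and stimulates the enzyme, had 1321 and 1320 normalised reads for clone 1, 1151 and 1067 for clone 2, 1195 and 1159 for clone 3, and 983.3 and 857.5 for clone 4, against 1054 and 1033 in WT. No clone passed the threshold for Eed, with differences of 0.29, 0.07, 0.15 and -0.16, yet the clones differed from each other (F test, adjusted p = 0.0212). Suz12 (chromosome 11, 79993106 to 80034123), the scaffold of PRC2, had 2793 and 2131 normalised reads for clone 1, 2530 and 2061 for clone 2, 2680 and 2546 for clone 3, and 2399 and 1903 for clone 4, against 2397 and 2461 in WT. The Suz12 differences of 0.01, -0.08, 0.10 and -0.17 were no larger than the gap between the cultures of 1 clone. Rbbp4 and Rbbp7, the histone-binding subunits, and Aebp2, a cofactor of one PRC2 form, were not called in any clone, with differences between -0.24 and 0.18.

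Among the accessory subunits that steer PRC2, 1 fell and 2 rose in clones 3 and 4. Jarid2 (chromosome 13, 44730774 to 44921643), which recruits the JARID2 and AEBP2 form, had 1130 and 816.5 normalised reads for clone 1, 1039 and 815.3 for clone 2, 740.3 and 744.2 for clone 3, and 745.8 and 765.4 for clone 4, against 1148 and 1194 in WT. All 8 knockout cultures were below WT, and Jarid2 fell in clones 3 and 4, by 0.55 and 0.53 (SE 0.14 each, adjusted p = 0.0108 and 0.0141). Mtf2 and Phf1 encode Polycomb-like proteins of the other PRC2 form, which bind CpG-rich DNA. Mtf2 (chromosome 5, 108065660 to 108109219) had 1243 and 1081 normalised reads for clone 1, 1393 and 1061 for clone 2, 1726 and 1529 for clone 3, and 1713 and 1840 for clone 4, against 1077 and 1060 in WT, and it rose in clones 3 and 4, by 0.53 and 0.65 (adjusted p = 0.0084 and 0.00328). Phf1 (chromosome 17, 26933127 to 26937908) had 2191 and 2323 normalised reads for clone 1, 2074 and 2002 for clone 2, 2618 and 2812 for clone 3, and 2483 and 2681 for clone 4, against 1939 and 2019 in WT. It rose in clones 3 and 4, by 0.42 and 0.35 (adjusted p = 0.0061 and 0.0158). Clones 3 and 4 therefore had less Jarid2 and more Mtf2 and Phf1 RNA than WT. These calls, except that of Mtf2 in clone 4, were lost when a WT culture was left out. Such a fit leaves 1 WT culture, so each difference is less precise, and the differences themselves moved little. Without WT replicate 2 the difference of Jarid2 was -0.53 in clone 3 and -0.51 in clone 4, and that of Mtf2 in clone 3 was 0.52. Without WT replicate 1 the difference of Phf1 was 0.39 in clone 3 and 0.33 in clone 4.

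The PRC1 catalytic pair parted in clone 4. Ring1 (chromosome 17, 34020792 to 34024680) had 1256 and 1650 normalised reads for clone 1, 1374 and 1491 for clone 2, 1518 and 1679 for clone 3, and 2038 and 1996 for clone 4, against 1446 and 1458 in WT. Rnf2 (chromosome 1, 151469398 to 151500991), the more active ligase in mouse embryonic stem cells, had 3400 and 3125 for clone 1, 2716 and 2664 for clone 2, 3849 and 3549 for clone 3, and 3057 and 2323 for clone 4, against 3353 and 3597 in WT. In clone 4 Ring1 rose by 0.43 (adjusted p = 0.0204) and Rnf2 fell by 0.36 (adjusted p = 0.0474). The call for Ring1 was lost without WT replicate 1, at a difference of 0.42. The call for Rnf2 was near the threshold and was lost in 7 of the 10 fits that left out 1 culture. Its difference was -0.31 without WT replicate 2 and -0.17 without clone 4 replicate 2. In clone 2 Rnf2 differed by -0.35 with an adjusted p of 0.0685. Ring1 and Rnf2 were not called in clones 1 and 3, where their differences lay between -0.09 and 0.12.

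**Figure D2:**
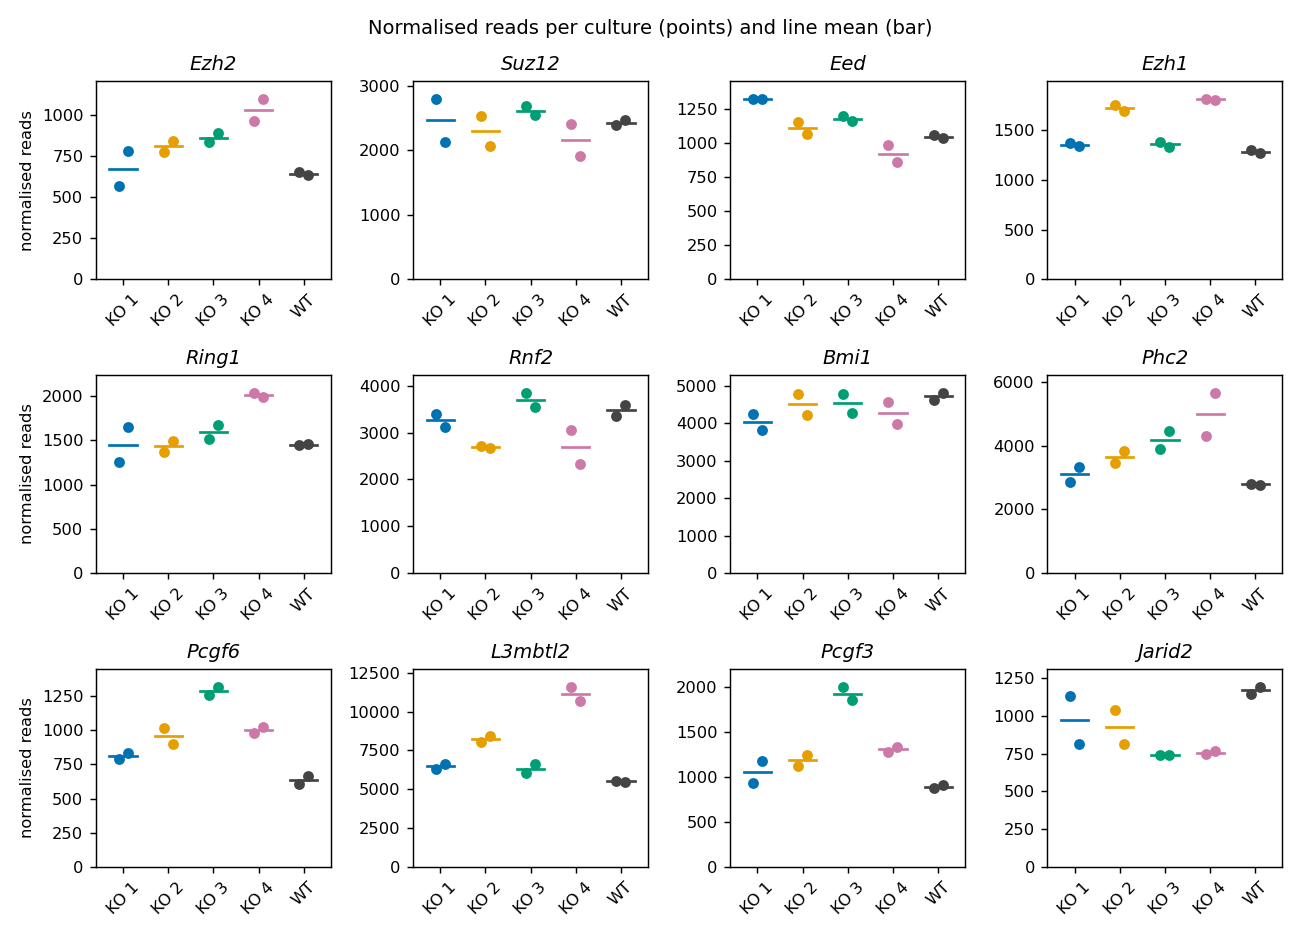
Normalised reads of 12 Polycomb genes (vertical axes from 0) in each culture (points) with the mean of each line (bar), KO clones 1 to 4 left of WT. The 2 WT points lie close together in every panel; Suz12 lies close to WT in every clone, while Pcgf6 lies above WT in all 8 knockout cultures.

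Calls in canonical PRC1 came only in clones 3 and 4. Of its 9 genes, 0 were called in clones 1 and 2, 2 rose and 1 fell in clone 3, and 1 rose in clone 4. These are 0.00%, 0.00%, 33.3% and 11.1% of its genes, against 3.50%, 26.1%, 39.8% and 36.5% of all genes tested. The medians of the 9 genes were -0.03, -0.07, 0.00 and -0.06 in clones 1 to 4. Bmi1 (chromosome 2, 18677018 to 18686629), a PCGF subunit best known for repressing the Cdkn2a locus, had 4265 and 3813 normalised reads for clone 1, 4797 and 4238 for clone 2, 4793 and 4292 for clone 3, and 4586 and 3990 for clone 4, against 4636 and 4819 in WT. Its differences of -0.22, -0.07, -0.06 and -0.14 did not pass the threshold. Pcgf2, the alternative to Bmi1 in the same complex, rose in clone 3 by 0.46 (adjusted p = 0.00673). That call was lost without WT replicate 2, at a difference of 0.45. Phc2 (chromosome 4, 128654655 to 128752881), which encodes a polyhomeotic protein that joins PRC1 complexes into larger assemblies, had 2874 and 3350 normalised reads for clone 1, 3450 and 3847 for clone 2, 3905 and 4477 for clone 3, and 4322 and 5666 for clone 4, against 2795 and 2774 in WT. Every knockout culture was above WT, and Phc2 rose in clones 3 and 4, by 0.56 and 0.79 (SE 0.14 each, adjusted p = 0.0101 and 0.00172). The clone 3 call of Phc2 was lost without WT replicate 2, at a difference of 0.55. Of the CBX genes, which encode the readers of methylated H3, Cbx7 fell in clone 3 by 0.40 (adjusted p = 0.0247). Its call was lost without WT replicate 2, at a difference of -0.38. Cbx2, Cbx6 and Cbx8 were not called in any clone. Phc1 and Phc3 were not called either.

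Variant PRC1 held the largest differences. Of its 8 genes, 0 were called in clone 1, 3 rose in clone 2, 4 rose and 1 fell in clone 3, and 5 rose and 1 fell in clone 4. These are 0.00%, 37.5%, 62.5% and 75.0% of the 8 genes, against 3.50%, 26.1%, 39.8% and 36.5% of all genes tested. The medians were 0.11, 0.24, 0.31 and 0.48, each above the all-gene median of the same clone. Pcgf6 (chromosome 19, 47033617 to 47050939), the core of a variant complex known to silence germline genes in mouse embryonic stem cells, had 789.3 and 833.4 normalised reads for clone 1, 1016 and 898.3 for clone 2, 1255 and 1319 for clone 3, and 979.8 and 1023 for clone 4, against 603.1 and 663.7 in WT. All 8 knockout cultures lay above both WT cultures. Pcgf6 rose in clones 2, 3 and 4, by 0.48, 0.85 and 0.54 (SE 0.10 each, adjusted p = 0.00599, 0.000141 and 0.00228), and the clone 1 difference of 0.29 had an adjusted p of 0.169. The clone 2 call was lost without WT replicate 1, at a difference of 0.43.

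L3mbtl2 (chromosome 15, 81663889 to 81688315), which encodes a partner of PCGF6 in the same complex, had 6331 and 6643 normalised reads for clone 1, 8067 and 8427 for clone 2, 6027 and 6611 for clone 3, and 11604 and 10679 for clone 4, against 5523 and 5479 in WT. Clone 4 was about double WT, at a rise of 0.99 (SE 0.10, adjusted p = 5e-05), and clone 2 rose by 0.57 (adjusted p = 0.00265). The differences of 0.23 and 0.19 in clones 1 and 3 were not called, although their cultures also stood above WT. Pcgf3 (chromosome 5, 108461259 to 108506976), the core of a variant complex that places much of the H2A ubiquitin across the genome, had 928.5 and 1175 normalised reads for clone 1, 1125 and 1247 for clone 2, 2007 and 1854 for clone 3, and 1284 and 1335 for clone 4, against 876.6 and 910.1 in WT. It rose in clones 2, 3 and 4, by 0.35, 0.97 and 0.47 (SE 0.12 each, adjusted p = 0.0496, 0.00015 and 0.00972). The Pcgf3 calls in clones 2 and 4 were lost without WT replicate 1, at differences of 0.32 and 0.45. Pcgf3 and Pcgf6 were the 2 members called higher in at least 3 clones, which 5.55% of all genes tested were; 0 members were called lower in at least 3 clones (8.66% of all genes) and 0 in all 4 clones with 1 sign (2.10% of all genes).

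Pcgf1 and Kdm2b encode the core and the CpG-binding subunit of the variant complex that is recruited to CpG islands. Pcgf1 (chromosome 6, 83077552 to 83080855) had 564.7 and 745.5 normalised reads for clone 1, 735.7 and 717.2 for clone 2, 840.7 and 891.0 for clone 3, and 1000 and 815.9 for clone 4, against 607 and 585.3 in WT. Kdm2b (chromosome 5, 122870664 to 122989270) had 506.6 and 503.4 for clone 1, 698.6 and 644.9 for clone 2, 827.1 and 758.1 for clone 3, and 657.4 and 1019 for clone 4, against 549.8 and 526.4 in WT. In clones 3 and 4 Pcgf1 rose by 0.43 and 0.49 (adjusted p = 0.0208 and 0.0134) and Kdm2b by 0.44 and 0.48 (adjusted p = 0.0372 and 0.0275). Pcgf5, the close relative of Pcgf3, went the other way in the same clones, falling by 0.40 and 0.34 (adjusted p = 0.0227 and 0.049). Its level was low, at 90.14 to 123.6 normalised reads in those clones and 170.6 and 184.8 in WT. All of these calls were lost without WT replicate 2. The differences in clones 3 and 4 were then 0.41 and 0.46 for Pcgf1, 0.42 and 0.46 for Kdm2b and -0.37 and -0.30 for Pcgf5. Rybp and Yaf2, which encode the subunit that marks variant PRC1, were not called in any clone.

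Some of these differences moved with whole chromosomes. In clone 3 the genes of chromosome 5 had a median 0.34 above, and those of chromosome 15 a median 0.28 below, the median of all genes, and in clone 4 chromosome 5 stood 0.23 above. Mtf2, Pcgf3 and Kdm2b lie on chromosome 5, and Cbx6, Cbx7, Yaf2 and L3mbtl2 on chromosome 15. After each culture was centred on its chromosome medians, Pcgf3 remained called in clone 3 at 0.62 (adjusted p = 0.0021) but not in clone 4, at 0.21 (adjusted p = 0.18), nor in clone 2, at 0.28 (adjusted p = 0.097). The centred Mtf2 differences were 0.18 and 0.38 in clones 3 and 4 (adjusted p = 0.32 and 0.0501), those of Kdm2b 0.09 and 0.22 (adjusted p = 0.694 and 0.303), and that of Cbx7 in clone 3 was -0.13, so these calls were lost. The call of Rnf2 in clone 4 was lost as well, at -0.28 (adjusted p = 0.0838), and Ezh2 in clone 3 became called at 0.38 (adjusted p = 0.0444). Eed lies on chromosome 7, whose median in clone 4 was 0.22 below, and its centred difference there was 0.04. L3mbtl2 in clone 3 became called at 0.47 (adjusted p = 0.0041). Pcgf6, on chromosome 19, kept its calls in clones 2, 3 and 4 at 0.41, 0.79 and 0.44.

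**Figure D3:**
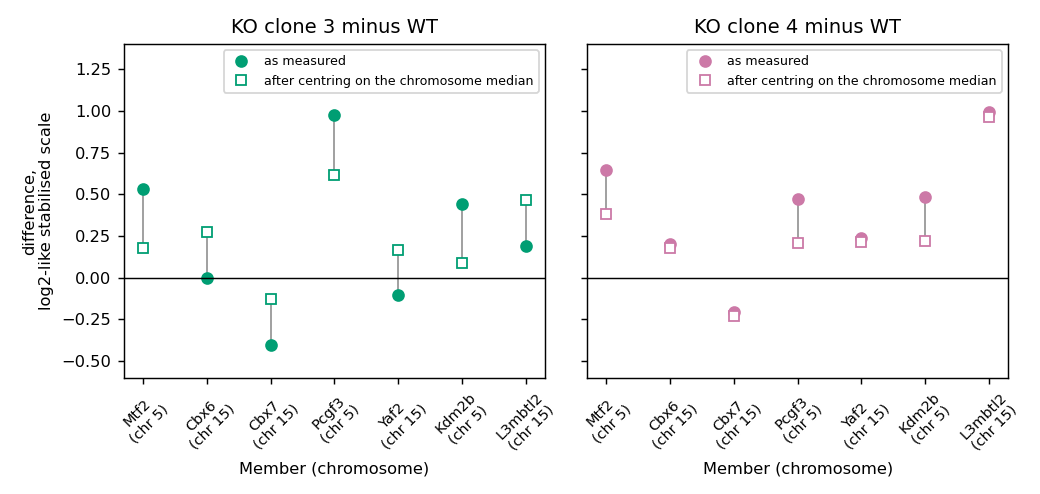
Difference from WT (log2-like stabilised scale) of the 7 members on chromosomes 5 and 15, in KO clone 3 (left) and KO clone 4 (right), as measured (filled circles) and after centring on the chromosome median (open squares). Chromosome 5 members drop after centring in both clones, chromosome 15 members rise in clone 3, and L3mbtl2 in clone 4 hardly moves.

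The clones also differed from one another. The F test among the 4 clones called 14 of 29 members, or 48.3%, against 44.5% of all genes tested: 5 in PRC2, both catalytic genes, 3 in canonical PRC1 and 4 in variant PRC1. L3mbtl2 had the smallest adjusted p of these (0.000549), followed by Pcgf3 (0.00223). With the clone as the unit, 4 clone means against 1 WT mean, limma called 0 of the 29 members at an adjusted p under 0.05 and 0 at an unadjusted p under 0.05, and edgeR on summed reads likewise called 0 by either threshold. Over all genes this fit called 0.00% after adjustment, and 671 genes, or 6.21%, had an unadjusted p under 0.05. Bap1 itself had an adjusted p of 0.735 (unadjusted 0.00172) in this fit, which rests on a single WT mean. Of the 29 calls of a member in a clone, 6 held under every alternative run: L3mbtl2 in clones 2 and 4, Pcgf3 in clone 3, Pcgf6 in clones 3 and 4, and Phc2 in clone 4.

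The partners and opponents of the complexes were read from further lists. Of 24 tested genes for other PRC1 partners, 0 were called in clone 1, 3 rose and 1 fell in clone 2, 10 rose and 2 fell in clone 3, and 6 rose and 2 fell in clone 4. Their medians were -0.03, 0.05, 0.13 and 0.12 in clones 1 to 4. Set against 3.50%, 26.1%, 39.8% and 36.5% of all genes tested, the share of these 24 genes called was lower in clones 1 and 2. It was higher in clone 3 and near that of all genes in clone 4, at 33.3%. Max, which encodes the DNA-binding partner of MGA in the PCGF6 complex, rose in clones 3 and 4 by 0.50 and 0.74 (adjusted p = 0.00361 and 0.000397). Tfdp1, the dimer partner of E2F proteins, rose in clones 2, 3 and 4 by 0.49, 0.70 and 0.37, as did Usp7, a deubiquitinase that binds PRC1, by 0.49, 0.47 and 0.28. Bcorl1, a scaffold of the PCGF1 complex, fell in the same clones by 0.52, 0.53 and 0.84. E2f6 and Mga, of the PCGF6 complex, were picked after their values were seen: E2f6 rose in clones 3 and 4 by 0.45 and 0.36, and Mga, its DNA-binding scaffold, had differences of 0.07, 0.18, -0.06 and -0.37 and was not called. After chromosome centring the clone 4 calls of E2f6 (0.09, adjusted p = 0.538) and Tfdp1 (0.26, adjusted p = 0.0664) were lost, and Max in clone 2 (0.44, adjusted p = 0.016) and Mga in clone 4 (-0.43, adjusted p = 0.0499) became called. Of 4 tested PRC2 partners, Epop, which links PRC2 to elongin, fell in clones 2 and 4 by 0.57 and 0.43, and Lcorl fell in clone 4 by 0.54. The medians of those 4 genes were -0.21, -0.09, 0.08 and -0.25.

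Among 10 tested PR-DUB genes, Bap1 fell in all 4 clones, and 1, 2, 5 and 2 others rose in clones 1 to 4, with medians of 0.02, 0.19, 0.28 and 0.06. Of all genes tested, 3.50%, 26.1%, 39.8% and 36.5% were called in clones 1 to 4. With Bap1 counted, the PR-DUB share called was above that of all genes in clones 1 to 3 and under it in clone 4. Mbd6, which encodes a PR-DUB subunit, rose in clones 2, 3 and 4 by 0.52, 0.64 and 0.49. Ogt, the O-GlcNAc transferase that binds the complex, rose in clone 1 by 0.76 and in clone 3 by 0.93, and Foxk2, a DNA-binding partner, rose in clones 3 and 4 by 0.35 and 0.40. Of 8 enzymes that erase H3K27 methylation or H2A ubiquitin, Bap1 included, 0, 1, 3 and 2 rose and 1 fell in each clone, that 1 being Bap1, and the medians were 0.02, 0.05, 0.21 and 0.05. Their share called was above that of all genes in clones 1 and 3 and near it in clones 2 and 4. Kdm6a, an H3K27 demethylase, rose in clones 2 and 3 by 0.41 and 0.49. Usp3, an H2A deubiquitinase, rose in clones 3 and 4 by 0.39 and 0.31, and Usp22 rose in clone 4 by 0.32. Of 15 trithorax and H3K27 acetylation genes, which oppose Polycomb, 0, 3, 7 and 3 rose and 0, 0, 0 and 1 fell, with medians of 0.07, 0.19, 0.28 and -0.06. Their share called was under that of all genes in clones 1, 2 and 4 and above it in clone 3. Smarcb1, a SWI/SNF subunit, rose in clones 2, 3 and 4 by 0.59, 0.51 and 0.54, Nsd2 in clones 3 and 4 by 0.61 and 0.40, and the H3K4 methyltransferases Kmt2a and Kmt2b in clones 2 and 3 by 0.56 and 0.58 and by 0.37 and 0.51. Centring on chromosome medians ended several of these calls. They were Mbd6 in clone 2 (0.27, adjusted p = 0.229), Ogt in clone 1 (0.77, adjusted p = 0.0515), Foxk2 in clones 3 and 4 (0.27 and 0.30, adjusted p = 0.064 and 0.0517) and Usp22 in clone 4 (0.22, adjusted p = 0.117). Those of Nsd2, on chromosome 5, in clones 3 and 4 (0.25 and 0.14, adjusted p = 0.0536 and 0.269) ended too, as did the clone 2 calls of Smarcb1 (0.33, adjusted p = 0.163), Kmt2a (0.51, adjusted p = 0.051) and Kmt2b (0.31, adjusted p = 0.0631).

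Genes known as Polycomb targets in other tissues were mostly at or under the filter. Of 39 Hox genes, 6 were tested, of which 0 rose in any clone and 0, 2, 3 and 2 fell, with medians of 0.04, -0.22, -0.35 and -0.17. Hoxb8 had 52.28 and 92.35 normalised reads for clone 1, 15.05 and 27.65 for clone 2, 62.74 and 75.11 for clone 3, and 26.39 and 23.96 for clone 4, against 162.9 and 150.5 in WT. All 8 knockout cultures were below WT, and Hoxb8 fell in clones 2, 3 and 4 by 1.06, 0.55 and 1.00 (adjusted p = 0.000248, 0.00703 and 0.000248), with an adjusted p of 0.0508 in clone 1. Hoxa5 fell in clones 3 and 4 by 0.62 and 0.36, and Hoxa4 in clones 2 and 3 by 0.49 and 0.35. Of 52 other classical targets, 20 were in the bulk table and 11 were tested. Among those 11 genes, 0, 0, 4 and 5 rose and 0, 3, 2 and 3 fell in clones 1 to 4. Their medians were -0.06, -0.03, -0.18 and 0.29, and 0.00%, 27.3%, 54.5% and 72.7% were called. Gata2, a haematopoietic and neural transcription factor, fell in clones 2, 3 and 4 by 1.05, 0.89 and 1.02. The HOX cofactor gene Meis1 fell in the same clones by 0.70, 0.49 and 0.79, and Foxa1 fell in clones 2 and 4 by 0.64 and 0.82. Irx5, a homeobox gene, rose in clones 3 and 4 by 1.20 and 0.66. With chromosome centring Hoxa4 in clone 3 (-0.31, adjusted p = 0.0676) and Foxa1 in clone 2 (-0.48, adjusted p = 0.112) were no longer called, and Hoxa5 in clone 2 became called (-0.31, adjusted p = 0.0473).

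In the tumours, the genotype and site of each matrix are known only from the name it was deposited under, so they are called here the matrices labelled KO skin, KO ocular, WT skin and WT ocular. The first 3 listed 19059 genes and the fourth 32285, with shorter barcodes and an earlier Cell Ranger release, so WT ocular levels were not set against the others. Full barcodes were shared by 0 cells between matrices, while the first 16 bases were shared by 1500 to 2391 barcodes between pairs of the first 3. Melanocytic-like cells, named from clusters with the melanocytic markers, made up 9072 of 13111 cells (69.2%) in KO skin, 4673 of 9398 (49.7%) in KO ocular and 5440 of 11682 (46.6%) in WT skin. No cluster of WT ocular was named melanocytic-like: clusters 0 and 2, with 7717 cells (29.5%), carried melanocytic marker RNA, but genes of other eye cells were among their leading genes. Cluster 6 of KO skin, 696 cells, was kept out because Ttr was among its leading genes. With 1 tumour per group no test was possible, and every interval below covers counting error only.

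Bap1 did not separate the labels in these matrices. It stood at 48.53 UMIs per 1000000 UMIs (UPM) in melanocytic-like cells of KO skin and 33.3 in KO ocular, against 42.01 in WT skin, and the ratio of KO skin to WT skin was 1.16 (95% interval 1.09 to 1.22). The bulk cultures differed in this, since Bap1 RNA lay below WT in every knockout culture, while KO skin was not below WT skin. The reason for this difference was not tested. Whether the measured stretch of Bap1 lies inside the edited part is, in the sources used here, not given. The Bap1 level therefore does not bear out the label KO skin, and the direction of every ratio below rests on the label.

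Between the skin matrices, more Polycomb genes were higher than lower in KO skin, as was the case over all genes. Of the 29 members with at least 50 UMIs in both, 12 were at least 1.5-fold higher in KO skin melanocytic-like cells (29.1% of all genes were) and 1 was at least 1.5-fold lower (17.5% of all genes). Together these are 13 of 29 members, against 46.7% of all genes. The median ratio was 1.38 for the members and 1.12 for all 11003 genes. By complex the median was 1.83 for canonical PRC1, 1.3 for variant PRC1, 1.26 for the catalytic pair and 0.974 for PRC2. Phf19 had 4 UMIs in KO skin and 3 in WT skin, too few for a comparison.

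PRC2 genes lay on both sides of 1 in these matrices. Eed was at 41.11 UPM in KO skin, against 68.44 in WT skin (ratio 0.601, 95% interval 0.571 to 0.631). Ezh2 was at 67.4 in KO skin, against 83.61 in WT skin (ratio 0.806, 0.773 to 0.84), and Suz12 at 63.38 in KO skin, against 80.48 in WT skin (ratio 0.788, 0.755 to 0.822). Eed alone was past 1.5-fold lower. The Ezh2 ratio was 0.808 among cells with 3 or more G2 or M phase UMIs. Among cells with none it was 1.04, close to 1, on 1035 UMIs in KO skin and 485 in WT skin. The lower Ezh2 level of KO skin was thus not seen in cells with none. Phf1 lay furthest from 1 of the members, at 111.6 UPM in KO skin, against 24.64 in WT skin (ratio 4.53, 4.27 to 4.8). Jarid2 was at 132 in KO skin and 75.21 in WT skin (ratio 1.75), and Ezh1 at 56.96 in KO skin and 31.04 in WT skin (ratio 1.83). Mtf2, Rbbp4, Aebp2 and Rbbp7 had ratios of 0.916, 0.94, 1.01 and 1.26.

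Among canonical PRC1 genes, Phc3 was at 210.9 UPM in KO skin, against 84.66 in WT skin (ratio 2.49, 2.41 to 2.58), and Cbx7 at 91.49 in KO skin, against 43.35 in WT skin (ratio 2.11). Cbx8, Cbx2, Pcgf2 and Phc1 had ratios of 2.64, 1.92, 1.83 and 1.68, and Bmi1, Phc2 and Cbx6 of 1.44, 1.28 and 0.902. Among variant PRC1 genes, Pcgf6 was at 35.58 in KO skin, against 16.54 in WT skin (ratio 2.15, 1.99 to 2.32), and Pcgf5 and Pcgf1 had ratios of 1.88 and 1.58. Kdm2b, Yaf2, Rybp, Pcgf3 and L3mbtl2 had ratios of 1.38, 1.21, 1.13, 1.1 and 0.849. Ring1 and Rnf2 had ratios of 1.4 and 1.13. Of the members called higher in a bulk clone, Ezh1, Phf1, Pcgf2, Pcgf1 and Pcgf6 were also past 1.5-fold higher in KO skin. Jarid2, Cbx7 and Pcgf5 were called lower in bulk but were past 1.5-fold higher in KO skin. All other members called in bulk, L3mbtl2 and Pcgf3 among them, stayed within 1.5-fold between the tumours.

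**Figure D4:**
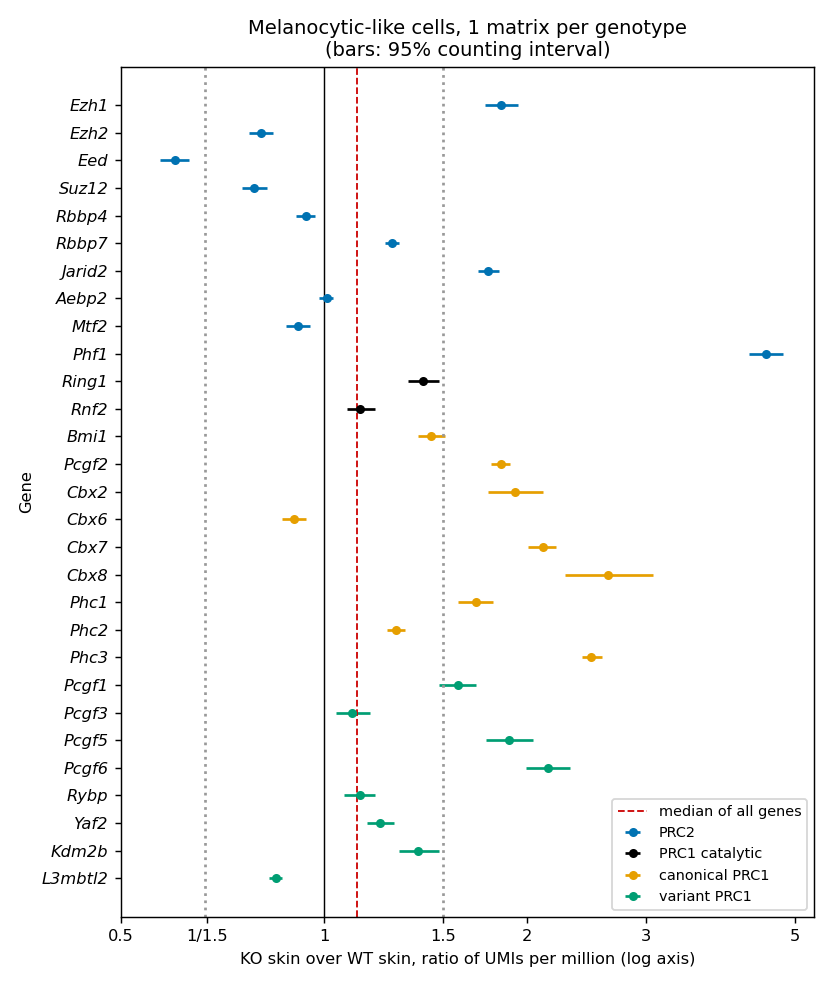
Ratio of UPM of each member in melanocytic-like cells, KO skin over WT skin (log axis), with 95% counting intervals; dotted lines mark 1.5-fold either way and the dashed line the median of all genes, 1.12. Phf1 at 4.53 and Eed at 0.601 lie at the ends, and most canonical PRC1 genes lie right of the all-gene median.

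Cells of other types were compared between the skin matrices in the same way. In macrophage-like cells, 1622 from KO skin and 834 from WT skin, 27 members had at least 50 UMIs in both matrices, 10 of them at least 1.5-fold higher in KO skin (27.4% of all genes were) and 2 at least 1.5-fold lower (14.6% of all genes), with a median of 1.4 against 1.12 for all genes. Of the 12 members past 1.5-fold higher in melanocytic-like cells, 10 could be measured there and 9 were again at least 1.5-fold higher, Pcgf5 being the exception at 0.863. Phf1 had a ratio of 3.64 in macrophage-like cells and 4.12 in fibroblast-like cells. Eed had a ratio of 0.642 in macrophage-like cells. The canonical PRC1 genes that could be measured in macrophage-like cells were also higher in KO skin. Cbx7, Phc3, Pcgf2, Phc1 and Cbx6 had ratios of 3.91, 2.87, 2.81, 2.31 and 2.02, and Bmi1 and Phc2 of 1.4 and 1.36. Pcgf6 had a ratio of 1.81 in macrophage-like cells, and in the other 3 types it was under 50 UMIs in at least 1 matrix. L3mbtl2 had ratios of 1.45 in macrophage-like, 1.49 in neutrophil-like, 0.846 in fibroblast-like and 0.451 in endothelial-like cells, so its direction differed between cell types.

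In fibroblast-like cells, 216 from KO skin and 502 from WT skin, 6 of 23 members were at least 1.5-fold higher in KO skin (22.6% of all genes were) and 1 lower (9.74% of all genes), with a median of 1.21 against 1.13 for all genes. In endothelial-like cells, 258 from KO skin and 131 from WT skin, 3 of 12 members were higher (22.4% of all genes) and 1 lower (12.6%), with a median of 0.92 against 1.1. In neutrophil-like cells, 368 from KO skin and 922 from WT skin, 2 of 5 members were higher (41.4%) and 1 lower (15.8%), with a median of 1.49 against 1.35. Pmel, a melanocytic marker, was detected in 93.1% of macrophage-like cells of KO skin and 96.2% of those of WT skin, at median depths of 4024 UMIs in KO skin and 6676 in WT skin. Marker RNA of other cell types also differed inside the melanocytic-like cells: hepatocyte markers summed to 679.6 UPM in KO skin and 90.99 in WT skin, macrophage markers to 697.5 in KO skin and 1014 in WT skin, and fibroblast markers to 91.54 in KO skin and 143.5 in WT skin. The part of this RNA in the tumour ratios was not tested.

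In KO ocular, for which no WT matrix of the same workflow was at hand, melanocytic-like cells had 101 UPM of Ezh2, 101.4 of Suz12 and 47.83 of Eed. Phf1 stood at 44.14, Phc3 at 114.2, Pcgf6 at 35.91 and L3mbtl2 at 377.5 there. In clusters 0 and 2 of WT ocular, Ezh2 was at 71.18 and 57.42 on its own scale.

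Melanocytic-like cells were also compared within each matrix by their RNA of G2 and M phase genes, and that count alone sorted them. Cells with at least 3 UMIs of G2 and M phase genes were set against cells with none: 1797 against 4138 in KO skin, 2634 against 925 in KO ocular and 1884 against 1697 in WT skin. The first class was deeper, with a median of 8632 UMIs against 3299 in KO skin, 13573 against 6037 in KO ocular and 11487 against 3328 in WT skin. A count of UMIs grows with depth, so the shares of the classes are not compared between matrices. The G2 and M phase genes summed to 863.5 UPM in KO skin, 1739 in KO ocular and 974 in WT skin. The part of depth in the ratios below was not tested. Ezh2 was higher in cells with 3 or more of these UMIs in all 3 matrices, by 1.34-fold in KO skin, 1.88-fold in KO ocular and 1.72-fold in WT skin, where the median over all genes was 0.915, 0.974 and 0.96. Rbbp4 (1.21, 1.47 and 1.15) and Rbbp7 (1.24, 1.48 and 1.24) followed Ezh2. Ezh1 ran opposite, at 0.618, 0.729 and 0.665, as did Jarid2 at 0.554, 0.456 and 0.614 and Phf1 at 0.491, 0.593 and 0.708. In PRC1, Phc3 (0.546, 0.571 and 0.634) and Cbx7 (0.584, 0.584 and 0.653) were lower in such cells of all 3 matrices, while Yaf2 (1.25, 1.28 and 1.18) was higher. Eed differed between matrices, at 0.757 in KO skin, 0.966 in KO ocular and 0.6 in WT skin.

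**Figure D5:**
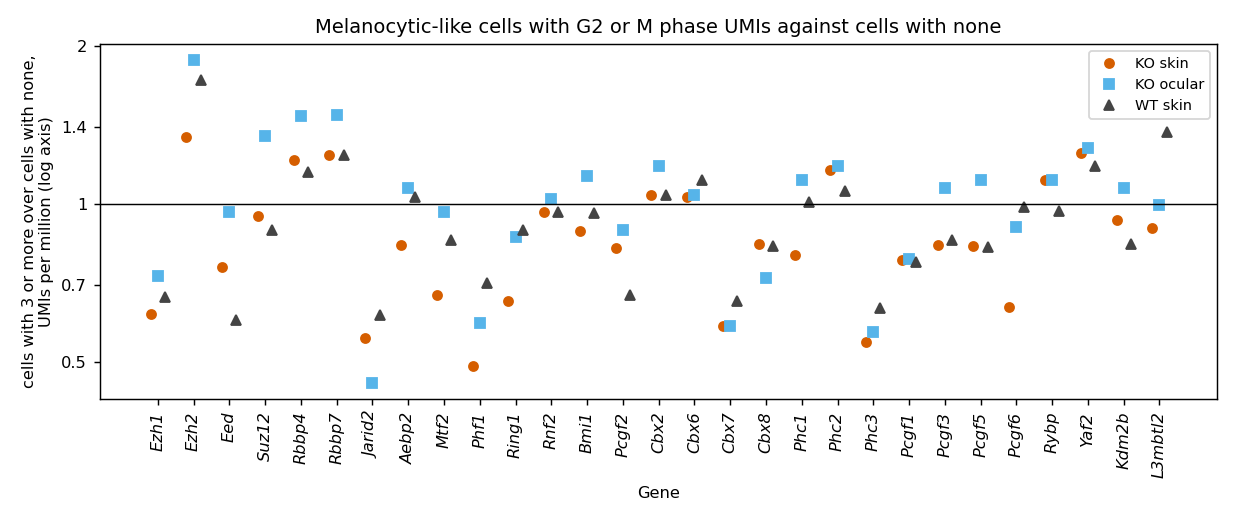
Ratio of UPM in melanocytic-like cells with 3 or more G2 and M phase UMIs over cells with none (log axis), for each member, in KO skin, KO ocular and WT skin (markers as in the legend). Ezh2, Rbbp4, Rbbp7 and Yaf2 lie above 1 in all 3 matrices and Ezh1, Jarid2, Phf1, Cbx7 and Phc3 below 1.

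Taking 1 class of cells alone changed which members passed 1.5-fold between the skin matrices. Among cells with no G2 or M phase UMI, 12 members were at least 1.5-fold higher in KO skin, of which 10 were among the 12 of all melanocytic-like cells. Bmi1 (1.54) and Ring1 (1.58) entered, Pcgf1 (1.46) dropped under the fold, and Cbx8 had too few UMIs. Among cells with 3 or more, 11 members were higher, all of them among the 12, and Pcgf1 was at 1.47. This split was chosen after the data were seen.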

How the data were processed

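Bulk values were the authors' variance-stabilised counts, log2-like by the deposited file's name and values. They were inverted to reads: 100% of values were whole within 0.01 once divided by the value of 1 read, and normalised reads are those whole reads over a size factor. The labels describe stranded polyA libraries. The aligner is, in the sources used here, not given, and the submitters' processing notes name the builds GRCm38 and mm10. The deposited single-cell files hold UMI counts from Cell Ranger 7.0.0 and 8.0.0, per the submitters' processing notes and file headers.

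limma 3.58.1 (R 4.3.3) with a mean-variance trend was fitted on 5 lines of 2 cultures, over 10803 genes with a mean at least 1 above the table's lowest value of 6.61, with Benjamini-Hochberg adjustment per clone. Differences are on the stabilised scale, which understates the change of low genes. An F test compared the clones, and a further fit used line means. Alternatives were leaving out each culture, a replicate block, quantile normalisation, other filters, edgeR 4.0.16 and DESeq2 1.42.0 on whole reads, chromosome centring, and each clone with WT alone. The labels call the cultures biological replicates, and p-values measure the spread between them. Replicate numbers were not taken to pair samples, since same-numbered deviations did not correlate over 0.1 in every pair of lines.

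Cells were kept at 500 or more UMIs, 200 or more genes and at most 20% mitochondrial UMIs, then clustered with scanpy 1.11.5 (2000 variable genes, 30 components, 15 neighbours, resolution 1) and named from marker lists. A doublet caller marked 1.18% of KO ocular cells and 0% in the other 3 matrices, so it did not work there. UMIs were summed per matrix and scaled to 1000000; intervals are exact at 95%.

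Members and lists were chosen with earlier results of these data known. Every member is reported; the value in each culture is given for 6 core genes and for up to 5 further members per complex called in at least 2 clones, and up to 4 genes of each other list. Methods were tested on simulated data. RefSeq tables of GRCm38.p6 gave coordinates and upstream sequences.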

Additional observations from a re-analysis of the deposited data

Results flagged for a closer look

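The 4 clones differed from each other in 14 of the 29 members by the limma F test. The adjusted p-values were 0.0102 for Ezh1, 0.0383 for Ezh2, 0.0212 for Eed, 0.0133 for Mtf2 and 0.0266 for Phf1 in PRC2. They were 0.0354 for Ring1 and 0.0353 for Rnf2, and 0.0319 for Pcgf2, 0.0433 for Cbx7 and 0.0183 for Phc2 in canonical PRC1. In variant PRC1 they were 0.00223 for Pcgf3, 0.00779 for Pcgf6, 0.0362 for Kdm2b and 0.000549 for L3mbtl2. Eed was in this set although no clone differed from WT past the threshold, since clone 1 stood above and clone 4 below WT; centred on its chromosome, Eed in clone 4 was at 0.04.

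Phc1 in clone 3, at 0.14 above WT, lay apart from the other 3 clones, which were between -0.11 and -0.09. It was the only one of 29 members with a clone apart in this way, and chance gives about 1 in 20.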

How the results depend on the processing

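No member changed sign past the threshold under any alternative run. All 22 of the 29 calls that were lost when 1 culture was left out were lost without a WT culture. Over the fits without 1 culture, the members called higher numbered 1 to 5 in clone 2 (4 in all cultures), 2 to 9 in clone 3 (8) and 4 to 11 in clone 4 (11), and those called lower 0 to 1 in clone 2 (0), 0 to 3 in clone 3 (3) and 0 to 3 in clone 4 (3). Without WT replicate 1 the higher counts were 1, 2 and 6 in clones 2, 3 and 4, and without WT replicate 2 they were 2, 3 and 4; the lower counts of clones 3 and 4 were 0 in both fits. Over all genes those fits called 1088 and 1161 for clone 2, 2320 and 2282 for clone 3, and 2026 and 1925 for clone 4, against 2822, 4304 and 3941 with all cultures, and 57 and 61 in clone 1, against 378. The F test called 5 to 15 members over the same fits, against 14. In clone 2, Rnf2 became the 1 member called lower under the replicate block, quantile normalisation, edgeR with TMM, DESeq2 and the fit of clone and WT cultures alone. That last fit called 13 members higher and 5 lower in clone 3 and 1 lower in clone 4, and 7507 of all genes in clone 3. Clone 1 stayed at 0 members under every alternative. In the tumours the count was 10 to 12 higher and 1 lower under each alternative; with median ratio scaling Phc1 and Pcgf1 dropped under 1.5-fold.

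The pairing by replicate number was partial: deviations of the clones correlated over 0.1 in 5 of 6 pairs (-0.0256 to 0.727), and those of WT with the clones did not (-0.128 to -0.0739). With the replicate block 616, 3376, 4885 and 4617 genes were called in clones 1 to 4, 5, 9 and 12 members were higher in clones 2, 3 and 4, and the F test called 16 members, against 14.

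The 2 cultures per line and 1 WT line limit the bulk results, and 1 tumour per genotype and site the single-cell ones.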
